A study of Macaca fascicularis with 64 samples.

Results

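The prohormone-processing genes were followed through the 4 endocrine cell types of cynomolgus monkey (Macaca fascicularis) islets and between young and old animals. The set was fixed by a list of 7 symbols: PCSK1, PCSK2, PCSK1N, CPE, PAM, FURIN and CPD. Of these, 6 had a row under their symbol among the 21041 macaque genes of the count files, and FURIN was not analysed here. Single islet cells had been picked from 16 monkeys, 8 young (4 to 6 years) and 8 old (18 to 21 years), with 4 females (YF1 to YF4, OF1 to OF4) and 4 males (YM1 to YM4, OM1 to OM4) in each age group, and the labels name no treatment and no transgene for any of them. Islets were hand-picked from the tail of the pancreas, dissociated and cleared of debris by flow cytometry, and 4 libraries were made per animal from cells picked by mouth pipette. Each animal was processed on its own day, so animal and day cannot be told apart.

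Peptide hormones are made as larger precursors. After the signal peptide is removed, prohormone convertases cut the precursor after pairs of basic residues inside the maturing secretory granule. PCSK1 encodes PC1/3 and PCSK2 encodes PC2. PC2 cuts proglucagon to glucagon in α-cells, and PC1/3 and PC2 together process proinsulin in β-cells. Carboxypeptidase E (CPE) then trims the basic residues left at the new ends, and peptidylglycine α-amidating monooxygenase (PAM) amidates those peptides that end in glycine, such as amylin and pancreatic polypeptide. FURIN and carboxypeptidase D (CPD) act earlier, in the trans-Golgi network. Proteins also restrain or assist the convertases: PCSK1N encodes proSAAS, an inhibitor of PC1/3, and SCG5 encodes 7B2, the chaperone of PC2.

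A cell was called α, β, δ or PP by the highest of GCG, INS, SST and PPY, so no member entered the choice of type. Of 6141 barcodes, 5908 had over 800 genes and over 10000 unique molecular identifiers (UMIs, tags that count each captured molecule once) and were retained: 4503 α-cells, 1219 β-cells, 112 δ-cells and 74 PP-cells. Median UMIs per cell were 68716, 78172, 47573 and 48931.5 in that order, and a monkey gave 338 to 381 retained cells and 21982838 to 35850398 UMIs. The UMI threshold, totals and medians, here and below, count 95 control sequences (spike-ins) too, while CPM leave them out. No cell name occurred in more than 1 library, and 93 of the 96 well barcodes were used in every library. For each monkey the UMIs of all cells of a type were added up where it had 5 or more of them. Sums of α-cells and of β-cells came from 16 monkeys each. Sums of δ-cells came from 11 (7 young, 4 old) and those of PP-cells from 6 (2 young, both male, and 4 old). A lower level in such a sum can come from fewer molecules per cell or from fewer cells that hold the transcript. A single monkey, OF2, gave 33 of the 74 PP-cells. The leading hormone was under 2 times the second in 87 of 4503 α-, 130 of 1219 β-, 11 of 112 δ- and 16 of 74 PP-cells. Leaving such cells out was an alternative. All 7 β markers had their highest mean in β-cells, as did 5 of 6 δ markers in δ-cells, 4 of 6 α markers in α-cells and 4 of 6 PP markers in PP-cells.

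PCSK1 divided the types. In counts per 1000000 summed UMIs (CPM, scaled by the trimmed mean of M-values, TMM), its level ran from 1.65 through a median of 9.67 to 30.0 over the α-cells of 16 monkeys, and from 99.8 through 252 to 610 over the β-cells of the same monkeys. The ranges did not overlap, and every monkey had the higher level in its β-cells. The difference was 4.93 ± 0.28 (log2 fold change ± SE, here and below; edgeR quasi-likelihood test with monkey as a block, adjusted p = 8.16e-21). The highest α value, in YM3, rested on library I1, which held 386 of its 536 PCSK1 UMIs at 88.2 CPM, against 13.9, 5.63 and 13.6 CPM in I2 to I4. CPM of single libraries, here and below, carry no TMM scaling. Without I1, left out after the data were seen, YM3 stood at 11.2 CPM, against 30.1 with it, both without TMM scaling. The highest TMM-scaled α value of the other monkeys was 18.3 CPM, in YM1. α-cell PCSK1 differed over 2-fold between libraries of the same animal in all 16 monkeys. Some of these library levels rested on few UMIs, such as 1 in OF2 I4 and 5 in YF3 I2, and the part of counting error was not tested. The difference of β-cells from α-cells lay between 4.77 and 5.11 over all alternatives, leaving out YM3 among them (highest adjusted p = 7.4e-18).

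δ-cells stood with β-cells for this convertase. Over 11 monkeys their PCSK1 level was 95.7 at the lowest, 241 at the median and 660 at the highest, again clear of the α range. The difference from α-cells was 5.07 ± 0.30 (adjusted p = 1.38e-19), and that from β-cells was 0.14 ± 0.28 (adjusted p = 0.773), with 7 of 11 monkeys higher in δ-cells. The SE leaves room for a difference in either direction between δ-cells and β-cells.

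PP-cells lay between. PCSK1 was at 53.4 CPM in YM1, 10.6 in YM4, 16.7 in OF1, 36.8 in OF2, 117 in OM2 and 121 in OM4. The values in YM4 and OF1 lay inside the α range, and OM2 and OM4 lay inside the β range. The level was 2.49 ± 0.37 above α-cells (adjusted p = 4.88e-06, higher in 6 of 6 monkeys), below β-cells (-2.44 ± 0.40, adjusted p = 1.12e-05, lower in 6 of 6) and likewise below δ-cells (-2.59 ± 0.42, adjusted p = 1.89e-05, lower in 5 of 5).

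PCSK2 ran the other way. Its α level was 1193 CPM at the lowest (OM4), 2106 at the median and 3350 at the highest (OM1). No sum of any other type reached the lowest α value. In β-cells it was 182 to 665 with a median of 349, in δ-cells 347 to 1025 with a median of 731, and in PP-cells 424 to 788 with a median of 556.

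Against α-cells the PCSK2 difference was -2.46 ± 0.12 in β-cells (adjusted p = 6.11e-23), -1.57 ± 0.14 in δ-cells (adjusted p = 5.27e-13) and -1.76 ± 0.18 in PP-cells (adjusted p = 1.15e-09), and all monkeys with both types showed it. β-cells held the lowest level: δ-cells were higher by 0.90 ± 0.13 (adjusted p = 1.13e-06, 10 of 11 monkeys) and PP-cells by 0.71 ± 0.17 (adjusted p = 0.00211, 5 of 6). PP-cells and δ-cells differed by -0.19 ± 0.19 (adjusted p = 0.558).

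**Figure D1:**
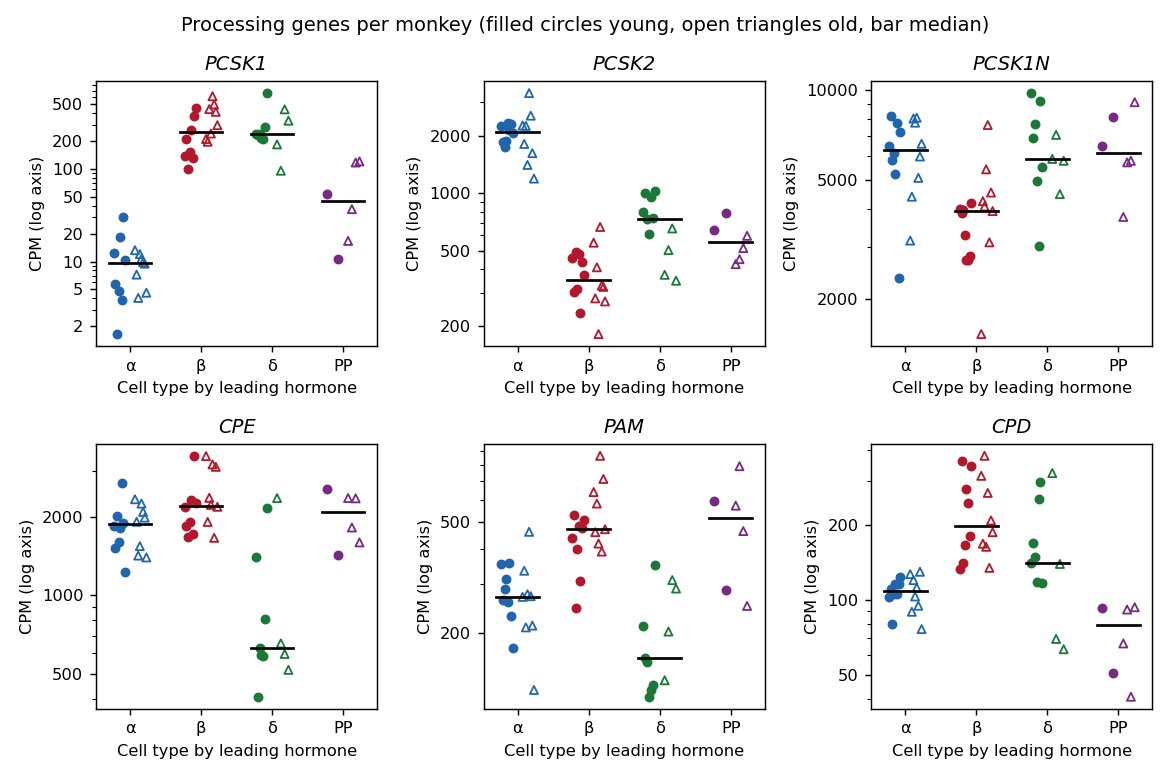
Level of each processing gene in CPM (log axes, each with its own range) in the α-, β-, δ- and PP-cells of each monkey, with filled circles for young animals, open triangles for old animals and a bar at the median. PCSK1 is near 10 CPM in α-cells and near 250 CPM in β-cells and δ-cells, PCSK2 is highest in α-cells, and most δ-cell sums are low in CPE and PAM.

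Taken within a sum, the log2 ratio of PCSK1 to PCSK2 UMIs had a median of -7.98 in α-cells (from -10.0 to -6.26, the latter in YM3, which had -7.65 without its library I1), -0.37 in β-cells (-2.29 to 0.60), -1.50 in δ-cells (-2.37 to -0.06) and -3.55 in PP-cells (-5.96 to -2.09). The ranges of α-cells and β-cells did not overlap. The ratio was higher in β-cells than in α-cells of the same monkey by 7.49 on average, in 16 of 16 monkeys (exact sign-flip permutation test, two-sided, p = 3.1e-05, the smallest that 16 monkeys allow). The ratio compares sums with each other and is not a ratio of molecules in a cell, since capture may differ between genes.

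**Figure D2:**
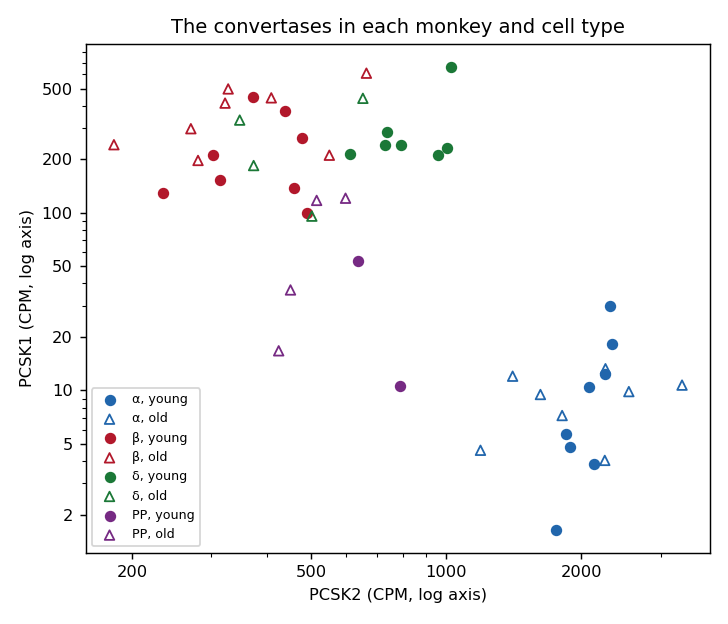
PCSK1 against PCSK2 in CPM (both axes log), each point the cells of 1 type in 1 monkey, filled circles young and open triangles old. The α-cell sums lie at high PCSK2 and low PCSK1, and the β-cell and δ-cell sums at high PCSK1. The 6 PP-cell sums lie below the α-cell sums in PCSK2 and spread from 10.6 to 121 CPM in PCSK1.

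The low level of PCSK1 in α-cells was set beside transcripts that β-cells are known to make. In the α-cells of a monkey PCSK1 reached a median of 2.73% of its β level (0.892% to 9.52% over 16 monkeys). The same share was 10.1% for INS, 4.05% for MAFA, 1.71% for IAPP, 1.01% for SLC2A2 and 0.109% for G6PC2 (10 monkeys). Set against the δ level of the same monkey, the medians in α-cells were 2.20% for PCSK1, 0.85% for SST and 0.61% for HHEX (11 monkeys). A PCSK1 UMI was seen in 31.0% of α-cells, 85.2% of β-cells, 80.4% of δ-cells and 45.9% of PP-cells.

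Cells with at least 10000 macaque UMIs were thinned to 10000, which kept 4464 α-, 1213 β-, 112 δ- and 74 PP-cells. The shares with PCSK1 were then 7.03% in α-cells (95% Clopper-Pearson interval 6.30% to 7.82%), 69.5% in β-cells (66.8% to 72.1%), 67.0% in δ-cells (57.4% to 75.6%) and 24.3% in PP-cells (15.1% to 35.7%). No cells known to lack PCSK1 were at hand to give a background. The 67 cells with over 1000 CPM of summed stellate, endothelial or immune markers, a limit set after the data were seen, had hormone types of their own: 21 α- and 10 β-typed cells passed the stellate limit, 12 and 3 the endothelial limit, and 19 and 1 the immune limit. A PCSK1 UMI was seen in 26.9% of these 67 cells, and after thinning in 15.0% of 60 (7.10% to 26.6%). Whether the PCSK1 UMIs of α-cells came from α-cells was not tested. Intervals here cover counting error only.

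In PP-cells PCSK1 stood at a median of 18.4% of the β level of the same monkey (2.02% to 34.9%, n = 6). The median was 15.2% for INS, 2.48% for IAPP, 1.74% for SLC2A2 and 0% for G6PC2 (5 monkeys). The part of β-cell RNA in the PP-cell sums was not tested. PCSK2 in β-cells stood at 13.0% to 28.3% of the α level over the 16 monkeys, beside medians of 25.9% for GCG, 43.3% for TTR and 8.18% for IRX2, which are α-cell genes. In δ-cells PCSK2 stood at 36.9% of the α level (19.2% to 60.6%, n = 11), GCG at 28.3%, TTR at 37.7% and IRX2 at 7.59%. LOXL4, also an α-cell gene but at a mean of only 11.8 CPM there, had medians of 27.8% in β-cells (1.61% to 113%) and 0% in δ-cells (0% to 360%). The part of α-cell RNA in the PCSK2 levels of β-cells and δ-cells was not tested.

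PCSK1N, the PC1/3 inhibitor, was lowest in β-cells. Its level was 2358 to 8199 CPM over the α-cells of 16 monkeys with a median of 6313, and 1529 to 7641 in β-cells with a median of 3952. β-cells were lower in 15 of 16 monkeys, by a log2 fold change of -0.68 ± 0.10 (adjusted p = 7.93e-07), although the ranges overlapped. δ-cells had 3009 to 9771 CPM with a median of 5886 and exceeded β-cells by 0.93 ± 0.12 in 11 of 11 monkeys (adjusted p = 3.37e-08).

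In PP-cells PCSK1N was 6524 CPM in YM1, 8157 in YM4, 3766 in OF1, 5732 in OF2, 5803 in OM2 and 9110 in OM4. The lowest of these lay above the β-cells of the same monkey, as did all others (1.02 ± 0.15, adjusted p = 7.15e-07, 6 of 6 monkeys). Neither δ-cells (0.25 ± 0.12, adjusted p = 0.118) nor PP-cells (0.34 ± 0.15, adjusted p = 0.151) passed the test against α-cells. Under relative log expression scaling both PCSK1N differences did, at 0.46 (adjusted p = 0.00166) and 0.51 (adjusted p = 0.0153).

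PCSK1N also moved with the library, in α-cells and β-cells together. In OF2 the α level was 6880, 5272 and 3793 CPM in libraries I1 to I3 and 1090 in I4, and the β level was 4980, 3057, 2326 and 897 in the same libraries. In YF3 it was 6593, 6283 and 7048 in I1 to I3 and 2031 in I4, and in YF1 library I3 stood at 3277 against 7053 to 7572 in the others. These were the 3 libraries, in 3 monkeys, below 0.5 of the highest α level of their own animal, a limit set after the data were seen.

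All 4 libraries of YM3 were low (2129 to 2620 CPM in α-cells) and so were 3 of OF1 (2641 to 2901, against 4625 in I4). Median UMIs per cell in the 3 low libraries were 34511 in OF2, 55131 in YF1 and 73134 in YF3, against 60009.5, 68724 and 79298 over all cells of those monkeys. The SD of log2 α levels between libraries of the same monkey was 0.43 for PCSK1N, 0.14 for PCSK2 and 0.14 for CPE, against a median of 0.26 over the 1584 genes of at least 100 CPM, among which PCSK1N ranked 107 from the highest. ATP5D, LY6H and LSM4 followed PCSK1N most closely over the 64 libraries, with r of 0.84, 0.82 and 0.81 after each monkey's mean was subtracted. What set these libraries apart was not tested.

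**Figure D3:**
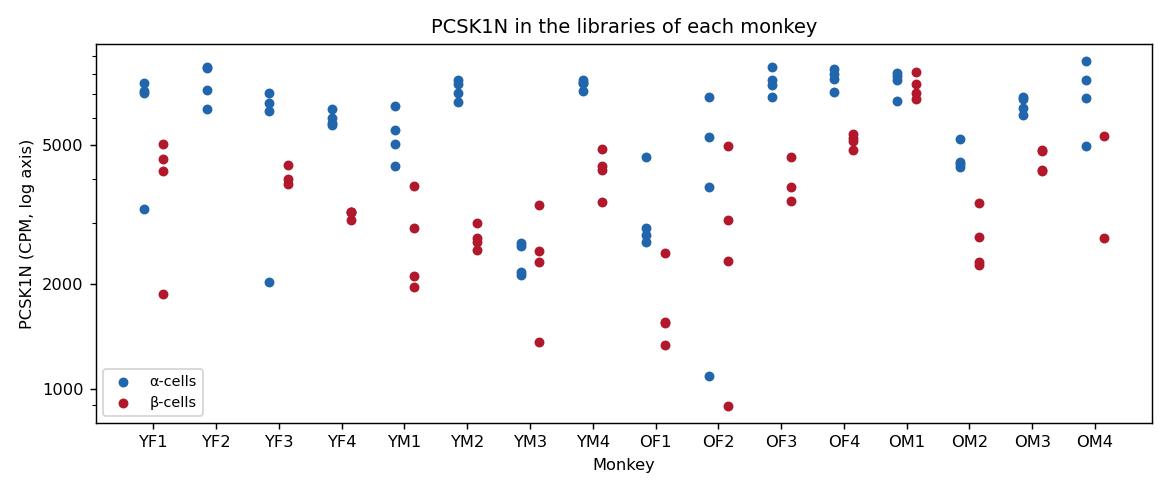
PCSK1N in CPM (log axis) in the α-cells (blue) and β-cells (red) of each library of each monkey, for libraries with at least 5 cells of the type. The α-cell and β-cell points of OF2 spread together over the widest range, the α-cell points of YM3 and 3 of the 4 of OF1 are low, and the α-cells stand above the β-cells in most animals.

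The lower PCSK1N of β-cells did not rest on these libraries. Without the 3 low libraries the difference was -0.68 (adjusted p = 3.01e-07). With library in place of monkey as the block, over the 56 libraries with at least 5 cells of both types, it was -0.72 (adjusted p = 4.77e-19), where libraries of 1 animal are not independent animals. Both alternatives were added after the data were seen.

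SCG5, the PC2 chaperone, had its highest median in α-cells, as PCSK2 did. That median was 6596 CPM in α-cells (4979 to 9388), 4465 in β-cells (2645 to 6524), 3568 in δ-cells (2686 to 5685) and 5023 in PP-cells (3555 to 6673). Against α-cells it was lower in β-cells (-0.66 ± 0.09, adjusted p = 2.25e-08, 16 of 16 monkeys) and in δ-cells (-0.84 ± 0.10, adjusted p = 4.63e-09, 10 of 11).

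CPE, the granule carboxypeptidase, was low in δ-cells. Its level was 1233 to 2698 CPM in α-cells with a median of 1876, 1662 to 3433 in β-cells with a median of 2206, and 1429 to 2561 in PP-cells with a median of 2088. In δ-cells the median was 628 over 11 monkeys, from 408 in YF2, and 8 of the 11 lay between 408 and 811 CPM. YF1 (1402 CPM), YM3 (2164 CPM) and OF1 (2361 CPM) stood above the rest.

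δ-cells had less CPE than α-cells (-1.11 ± 0.15, adjusted p = 1.26e-07, lower in 9 of 11 monkeys), than β-cells (-1.43 ± 0.15, adjusted p = 2.75e-10, 11 of 11) and than PP-cells (the PP difference was 1.29 ± 0.19, adjusted p = 3.82e-06, 5 of 5). Between β-cells and α-cells the difference of 0.32 ± 0.13 missed the threshold (adjusted p = 0.0606, higher in 12 of 16 monkeys). It passed under 12 of 29 alternatives, with hormones left out of the totals among them (0.38, adjusted p = 0.014), and ranged from 0.27 to 0.39 over all of them.

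CPD, the trans-Golgi carboxypeptidase, was highest in β-cells by median. It ran from 76.4 to 130 CPM in α-cells and from 134 to 381 in β-cells, so that no β-cell sum reached down to an α-cell sum (1.03 ± 0.17, adjusted p = 2.24e-06, 16 of 16 monkeys). In PP-cells it was 92.7 CPM in YM1, 50.7 in YM4, 66.8 in OF1, 91.5 in OF2, 40.8 in OM2 and 93.5 in OM4, all under the β range (-1.52 ± 0.27, adjusted p = 4.71e-05, 6 of 6).

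In δ-cells CPD spread from 63.4 CPM in OM4 to 324 in OF1. It exceeded the α level by 0.62 ± 0.20 (adjusted p = 0.0175, 9 of 11 monkeys), but the call was lost when cells were thinned to 10000 UMIs (0.37, adjusted p = 0.236), with at least 10 cells per sum (0.45, adjusted p = 0.147) and without OF1 (0.53, adjusted p = 0.0517). PP-cells had less CPD than δ-cells (-1.11 ± 0.28, adjusted p = 0.00659), which was lower in 3 of 5 monkeys with both types and was lost without OF1 (-0.89, adjusted p = 0.0512). Both of these CPD calls were lost without that animal. CPD missed the threshold between δ-cells and β-cells (-0.41 ± 0.20, adjusted p = 0.138) and between PP-cells and α-cells (-0.49 ± 0.26, adjusted p = 0.261), where it passed only with thinned cells (-1.04, adjusted p = 0.049).

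PAM, the amidating enzyme, was higher in β-cells and PP-cells. Its α level was 125 to 461 CPM with a median of 271, its β level 245 to 863 with a median of 473, and its δ level 118 to 349 with a median of 163. In PP-cells it was 595 CPM in YM1, 285 in YM4, 572 in OF1, 792 in OF2, 464 in OM2 and 250 in OM4.

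β-cells exceeded α-cells in PAM by 0.84 ± 0.16 (adjusted p = 6.05e-05, 14 of 16 monkeys) and δ-cells fell short of β-cells by a log2 fold change of -1.26 ± 0.20 (adjusted p = 3.41e-06, lower in 11 of 11). PP-cells exceeded δ-cells by 1.28 ± 0.25 (adjusted p = 0.000333, 4 of 5 monkeys) and α-cells by 0.86 ± 0.24 (adjusted p = 0.0189, 6 of 6). The last call was lost without OF2, which gave the most PP-cells (0.64, adjusted p = 0.12), and without YM1 (0.72, adjusted p = 0.0863). PP-cells and β-cells differed by 0.02 ± 0.24 (adjusted p = 0.961). δ-cells and α-cells differed in PAM by -0.42 ± 0.19, which missed the threshold (adjusted p = 0.106) but passed with thinned cells (-0.52, adjusted p = 0.0458) and without OM4 (-0.58, adjusted p = 0.0198).

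Set against all 12899 genes tested, β-cells against α-cells had 5 of 6 members past the threshold (3 higher, 2 lower) where 25.0% of all genes were called. For δ-cells against α-cells it was 4 of 6 with 23.2% of genes called, and for PP-cells against α-cells 3 of 6 with 6.61%. δ-cells against β-cells gave 4 of 6 with 19.8%, PP-cells against β-cells 4 of 6 with 17.2% and PP-cells against δ-cells 4 of 6 with 10.3%. The median of all genes' log2 fold changes was -0.11 in β-cells against α-cells, while δ-cells had -0.47 and PP-cells -0.37 against α-cells, and another scaling (relative log expression) moved it by 0.21 and 0.15 in the latter pair; no called member changed direction under any scaling. Members' levels were compared between types and never between genes, since capture efficiency per gene is unknown.

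**Figure D4:**
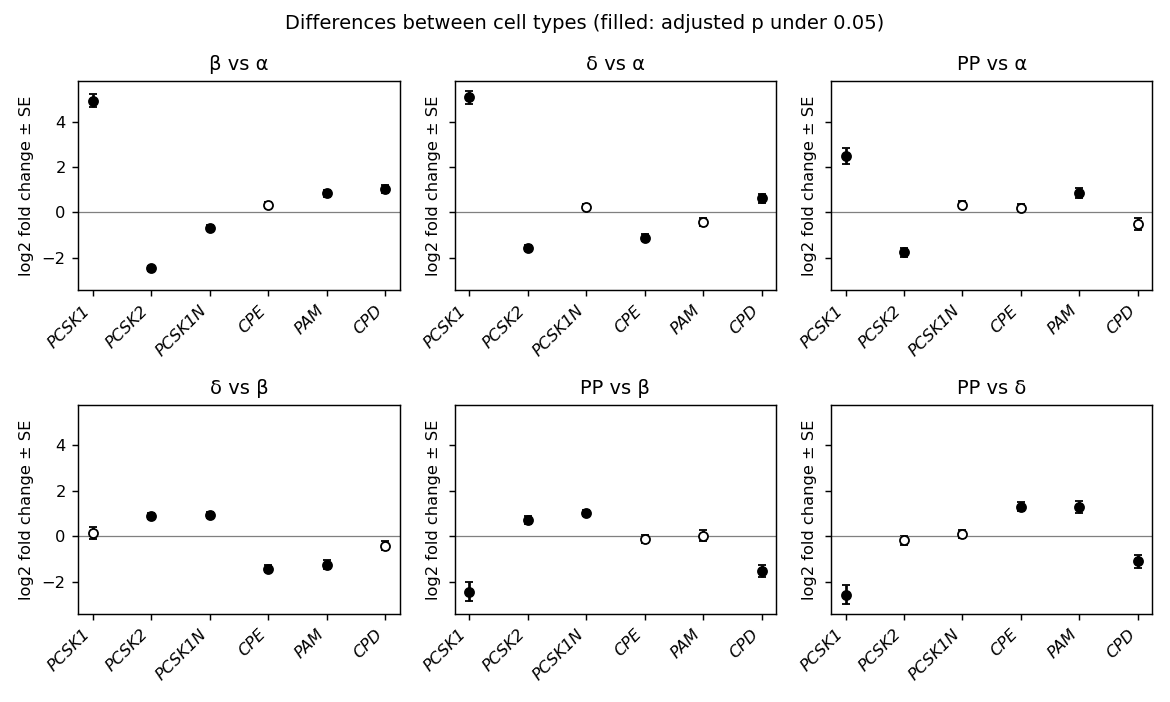
log2 fold change ± SE of each processing gene in the 6 comparisons between cell types, with filled points where the edgeR adjusted p was under 0.05. PCSK1 spans the widest range, from 5.07 (δ against α) to -2.59 (PP against δ), and CPE and PAM are negative in δ-cells against β-cells.

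Markers of other cells were low by median in the sums, apart from acinar markers in δ-cells. Over 1000 CPM of summed acinar markers were held by 108 α-, 4 β-, 16 δ- and 1 PP-typed cells. Summed acinar markers had monkey medians of 3.90 CPM in α-cells (0.733 to 1287), 2.25 in β-cells (0 to 420) and 4.02 in PP-cells (0 to 280), but 384 in δ-cells (77.6 to 1309). Of the 7 acinar markers with a row, CPB1 made up most of the δ signal at a mean of 535 CPM, while each of the other 6 had a mean under 16 CPM in δ-cells. Summed ductal, stellate, endothelial and immune markers had medians of 36 CPM or less in each type. The highest stellate sum was 518 CPM in PP-cells of OF1. Their part in the members' levels was not tested.

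The wider pathway was read from lists of related genes. Beside them, 25.0%, 23.2% and 6.61% of all genes were called in β-, δ- and PP-cells against α-cells. The share was 19.8% in δ-cells and 17.2% in PP-cells against β-cells, and 10.3% in PP-cells against δ-cells. The signal peptidase complex, which removes the signal peptide, was higher in β-cells: 4 of 5 genes were higher than in α-cells and none lower, with a list median of 0.83 beside -0.11 over all genes. SPCS2, a subunit of that complex, had a median of 251 CPM in α-cells (212 to 411) and 564 in β-cells (429 to 889), a difference of 1.13 ± 0.13 (adjusted p = 3.17e-10). Of the same 5 genes, 4 were lower in δ-cells than in β-cells (list median -1.06) and 4 were lower in PP-cells (list median -1.29), while none passed between δ-cells or PP-cells and α-cells, or between PP-cells and δ-cells.

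Among 4 tested other proprotein convertases, 1 was lower in β-cells than in α-cells (list median -0.15) and 2 were lower in δ-cells. Of all genes 25.0% and 23.2% were called in these 2 comparisons. PCSK5, a convertase related to furin, was at 35.5 CPM by median in PP-cells (8.42 to 65.6), 16.5 in α-cells (2.86 to 34.0) and 1.78 in β-cells (0 to 5.10). It was higher in PP-cells than in β-cells by 4.18 ± 0.73 (adjusted p = 2.83e-05) and than in δ-cells by 3.17 ± 0.95 (adjusted p = 0.0219), and lower in δ-cells than in α-cells (-2.41 ± 0.79, adjusted p = 0.0221). In δ-cells the median was 0 CPM, but the range of 0 to 123 CPM (11 monkeys) held the highest PCSK5 value of any type. Most δ-cell sums held no PCSK5 UMI, so fitted folds there depend on the prior count.

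Of 5 tested genes for amidation and N-terminal cyclization, 2 were lower in β-cells and 2 in δ-cells than in α-cells. The list medians were -0.32 and -0.59, beside -0.11 and -0.47 over all genes. QPCT, glutaminyl cyclase, which closes N-terminal glutamine to pyroglutamate, had a median of 452 CPM in δ-cells (218 to 1563) against 2346 in α-cells (1428 to 3084) and 1993 in PP-cells (1840 to 2425). The δ difference was -2.09 ± 0.15 from α-cells (adjusted p = 5.51e-16), -1.69 ± 0.15 from β-cells (adjusted p = 8.25e-13), and PP-cells exceeded δ-cells by 2.01 ± 0.19 (adjusted p = 1.38e-11). ATP7A, a copper pump that supplies PAM with its cofactor, was lower in PP-cells than in β-cells (-2.38 ± 0.78, adjusted p = 0.0277). Its medians were 4.90 CPM in PP-cells (0 to 24.1) and 21.2 in β-cells (6.68 to 66.4), so the ranges overlapped.

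The vacuolar ATPase acidifies the granule. Of its 14 tested genes, 3 were higher in β-cells than in α-cells (list median 0.02). Against α-cells 1 was higher and 3 lower in δ-cells (-0.28), and 6 were lower in δ-cells than in β-cells (-0.32). All genes had medians of -0.11, -0.47 and -0.35 in these comparisons, with 25.0%, 23.2% and 19.8% called. ATP6AP2, an accessory subunit, was at 152 CPM by median in δ-cells (74.8 to 302), 312 in α-cells (258 to 392) and 445 in β-cells (317 to 706). Its δ difference was -0.99 ± 0.17 from α-cells (adjusted p = 1.5e-05) and -1.53 ± 0.17 from β-cells (adjusted p = 1.02e-09). ATP6V1E1, a subunit of the cytosolic domain, was lower in PP-cells than in α-cells (-0.89 ± 0.27, adjusted p = 0.0391).

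Of 4 other exopeptidases of basic residues 1 was lower in β-cells (list median -0.89), and of 3 cathepsins 2 were higher in β-cells (0.41); neither list had a call in δ-cells or PP-cells against α-cells. Of 9 tested other prohormones and granins, which are substrates and granule cargo, 3 were higher and 5 lower in β-cells than in α-cells (list median -1.31). IAPP, the precursor of amylin, exceeded the α level by 6.01 ± 0.33 (adjusted p = 4.42e-21). CHGA, a granin that is itself cut by the convertases, was lower than in α-cells in β-cells (-2.14 ± 0.17, adjusted p = 2.51e-15), δ-cells (-2.65 ± 0.20, adjusted p = 3.89e-15) and PP-cells (-1.46 ± 0.25, adjusted p = 7.89e-05). SCG2 was lower in β-cells (-1.31 ± 0.15, adjusted p = 1.41e-09) and PP-cells (-0.91 ± 0.23, adjusted p = 0.0101), and SCG3 was lower in δ-cells (-0.92 ± 0.13, adjusted p = 3.16e-07). PYY was lower in β-cells (-3.04 ± 0.37, adjusted p = 3e-09) and δ-cells (-3.65 ± 0.49, adjusted p = 1.13e-07), and NPY, at 0 to 567 CPM over the α-cells of 16 monkeys, in β-cells (-3.21 ± 0.66, adjusted p = 0.000167).

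Over the 49 sums, the genes whose log2 levels followed each member most closely were described by Pearson's r, with sums of 1 monkey sharing libraries and cell type setting much of the spread. PCSK1 was followed by ERICH5 (0.90), HADH (0.87) and CABP7 (0.86). PCSK2 was followed by TSPAN12 (0.88), ITPR1 (0.85) and GC (0.84). CPE was followed by SCG3 (0.89), SLC4A10 (0.85) and GGH (0.83), PAM by SCG3 (0.74), and CPD by ERO1B (0.75). For PCSK1N the highest values were lower, at 0.68 for CST3, 0.66 for CYBA and 0.61 for CALY.

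Old and young animals were compared within each type, the question the study was built on. In α-cells no member passed the test: the log2 differences (old against young) were between -0.15 and 0.03 for all 6, with 0 called, 0 at an unadjusted p under 0.05 and 0 by DESeq2. PCSK2 had a median of 2106 CPM in young (1756 to 2343) and 2033 in old α-cells (1193 to 3350), a difference of -0.01 ± 0.17. Both the lowest and the highest value belonged to old animals (OM4 and OM1). Of all 12916 genes tested in α-cells 0 (0%) were called, with 886 at an unadjusted p under 0.05 and 23 called by DESeq2.

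In β-cells PCSK1 had the largest difference of the members. It was at 137, 212, 99.8 and 153 CPM in YF1 to YF4, and at 264, 130, 375 and 450 CPM in YM1 to YM4. In old animals it was at 211, 197, 443 and 241 CPM in OF1 to OF4, and at 610, 497, 414 and 297 CPM in OM1 to OM4. All 8 old animals lay above the young median of 183 CPM, but the ranges overlapped, since YM3 and YM4 lay above the old median of 355.

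The PCSK1 difference was 0.72 ± 0.24 (unadjusted p = 0.00614) and did not pass across genes (adjusted p = 0.684). PAM had a young median of 457 CPM (245 to 531) and an old median of 527 (392 to 863), a difference of 0.41 ± 0.19 (unadjusted p = 0.0386, adjusted p = 0.883, 6 of 8 old animals above the young median). PCSK2 differed by -0.04 ± 0.22, PCSK1N by 0.32 ± 0.22, CPE by 0.21 ± 0.17 and CPD by -0.02 ± 0.25. In all, 0 of 6 members were called in β-cells, by edgeR or by DESeq2, beside 0.0470% (5) of 10628 genes; DESeq2 called 39 genes. Median UMIs per β-cell were 84922 in old and 68395.5 in young animals, and the part of depth was not tested beyond thinning, which called no member either.

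Of those 5 genes 1 was on the lists fixed here: CHGB, a granin, at a median of 1200 CPM in young (798 to 2416) and 3948 in old β-cells (1281 to 6822), a difference of 1.55 ± 0.28 (adjusted p = 0.0259). In β-cells of the 8 young animals the log2 ratio of PCSK1 to PCSK2 had a mean of -0.90 with an SD of 0.82, and in those of the 8 old animals a mean of -0.05 with an SD of 0.64. It was thus higher by 0.85 in old β-cells, with 7 of 8 old animals above the young median (exact permutation test, two-sided, p = 0.037), but adjusted over the 3 tests of the ratio it missed the threshold (p = 0.055). In α-cells the ratio differed by 0.18 (exact permutation test, p = 0.73).

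δ-cells and PP-cells had few animals. In δ-cells PCSK2 was at 373 CPM in OF1, 503 in OF2, 653 in OM2 and 347 in OM4, against 612 to 1025 with a median of 792 in 7 young animals. All 4 old values lay under the young median, and OM2 lay inside the young range. The difference was -0.82 ± 0.32 (unadjusted p = 0.0153, adjusted p = 1). No member was called in δ-cells (0 of 6, 1 at an unadjusted p under 0.05, 0 by DESeq2; 0% of 6484 genes, of which 209 had an unadjusted p under 0.05 and 3 were called by DESeq2).

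In PP-cells PCSK2 was at 637 and 788 CPM in the 2 young animals, both male. It was at 424 and 450 in the 2 old females and at 515 and 597 in the 2 old males, a difference of -0.31 ± 0.52. The young and old ranges did not overlap, but the share of all genes for which this held in so few animals was not counted. PCSK1 differed by 1.97 ± 1.27 (unadjusted p = 0.127) on 24 UMIs in the young and 122 in the old sums. Again 0 of 6 members were called (0 at an unadjusted p under 0.05, 0 by DESeq2; 0% of 6568 genes, 394 at an unadjusted p under 0.05, 2 by DESeq2). With means over cells of log2(CPM/10 + 1) and exact permutation over monkeys, 24 tests of age gave no adjusted p under 0.44; the 15 ways to choose 2 of 6 animals keep the PP tests from passing at all.

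**Figure D5:**
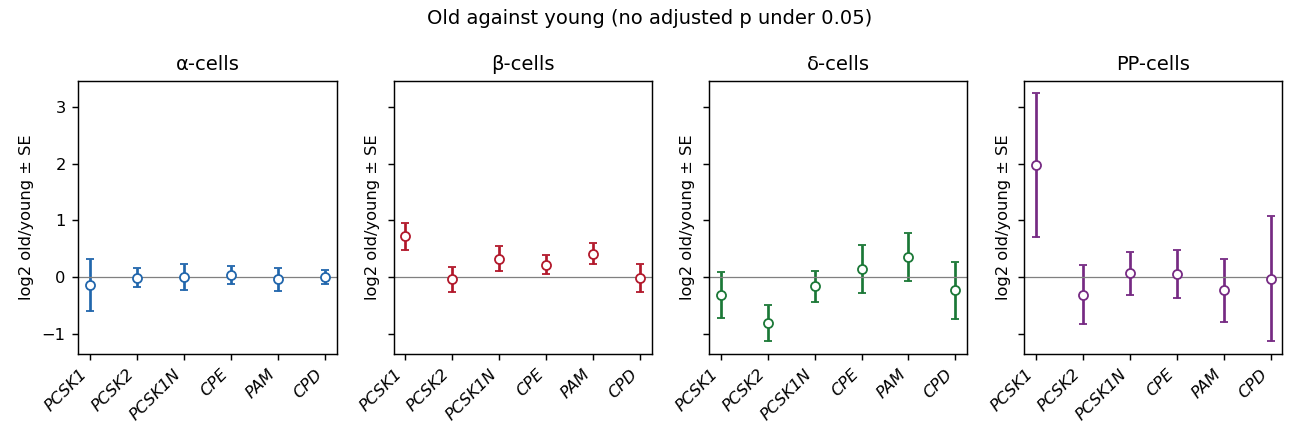
log2 fold change ± SE of old against young for each processing gene in the 4 cell types, none with an adjusted p under 0.05. The α-cell values lie within 0.15 of 0, β-cell PCSK1 is at 0.72, δ-cell PCSK2 is at -0.82, and the PP-cell errors reach 1.27.

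The difference between β-cells and α-cells in the effect of age was tested directly with monkey as a block. It was 0.68 ± 0.38 for PCSK1 (unadjusted p = 0.0868) and 0.50 ± 0.25 for PAM (unadjusted p = 0.0505), and 0 of 6 members were called (0 at an unadjusted p under 0.05, 0 by DESeq2; 0% of 13322 genes, 806 at an unadjusted p under 0.05, 10 by DESeq2). β-cell PCSK1 was also higher in males than in females, by 0.87 ± 0.24 (unadjusted p = 0.00139), and this too failed across genes (adjusted p = 0.801). The female values lay between 99.8 and 443 CPM and the male values between 130 and 610.

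Males against females gave 0 of 6 members in α-cells and 0 of 6 in β-cells (0 and 1 at an unadjusted p under 0.05, 0 and 0 by DESeq2), where 0% of 12916 and 0% of 10628 genes were called (753 and 424 at an unadjusted p under 0.05, 26 and 11 by DESeq2). The interaction of sex and age gave 0 of 6 in α-cells beside 0.00774% of genes and 0 of 6 in β-cells beside 0% (434 at an unadjusted p under 0.05, 1 by DESeq2), with no member at an unadjusted p under 0.05 and none called by DESeq2. For β-cell PCSK1 that interaction was -0.27 ± 0.48, so the sex difference was not shown to change with age.

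Levels of a member in the α-cells and β-cells of the same monkey were compared over the 16 animals on the log2 scale, as a family of 6 relations. CPD had Pearson's r of 0.63 (permutation p = 0.0086, adjusted 0.025) and Spearman's rho of 0.70 (permutation p = 0.0036, adjusted 0.021), with r of 0.67 in young and 0.63 in old animals and 0.67 without the 2 animals farthest from the median. PCSK2 had r of 0.69 (permutation p = 0.0032, adjusted 0.019) and rho of 0.65 (permutation p = 0.0078, adjusted 0.023). Its r was 0.58 without OM4 and OM1, and 0.23 within young and 0.81 within old animals. PCSK1N had r of 0.63 (permutation p = 0.013, adjusted 0.025) and rho of 0.47 (permutation p = 0.073, adjusted 0.15), and r of 0.37 without YM3 and OF1, on which the relation rested. Both types of an animal came from the same libraries and day, so the points of a pair share library and day.

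For the other members the relation did not pass: PCSK1 had r of 0.47 and rho of 0.30 (permutation p = 0.069 and 0.26, adjusted 0.1 and 0.31), CPE 0.11 and -0.04 (0.67 and 0.87 by permutation, adjusted 0.81 and 0.87), and PAM -0.06 and -0.38 (0.84 and 0.15 by permutation, adjusted 0.84 and 0.22).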

How the data were processed

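Single islet cells of 16 cynomolgus monkeys were sequenced in 64 libraries with a modified STRT-seq protocol that carries UMIs. The authors aligned reads with TopHat2 2.0.12 to the Ensembl build Macaca_fascicularis_5.0, kept reads with a unique position, assigned them to genes with htseq-count, collapsed reads of the same UMI, and deposited the raw UMI counts per gene and cell. CASAVA 1.8 is also named in the submitters' processing notes. Whether strand was used in counting is not given in the sources used here.

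The retained cells, which had more than 800 detected genes and more than 10000 UMIs, were typed by their highest hormone. No doublet caller was run, since cells were picked singly; leaving out cells above the 95th percentile of UMIs was an alternative. Counts were summed per monkey and type (at least 5 cells), filtered with filterByExpr, scaled by TMM and tested with edgeR 4.0.16 (quasi-likelihood; R 4.3.3). Library levels carry no TMM scaling. Marker means, summed marker levels and shares of the level in another type are means over cells of CPM without TMM scaling. Cell types were compared with monkey as a block, and age and sex within a type in additive models. Benjamini-Hochberg adjustment ran over all genes tested, at 0.05. Standard errors are the absolute log2 fold change divided by the square root of F. Ratios were taken as log2 of (PCSK1 + 1)/(PCSK2 + 1) from the summed UMIs and tested with exact permutations over monkeys (scipy 1.17.1). Monkeys are the replicates, and each has 1 pancreas sample.

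All members are named, with SCG5. From the pathway lists, up to 6 called genes per comparison with a mean of at least 10 CPM are named by size of change, and 3 most alike genes per member are taken by Pearson's r; not all of these are repeated in the text. CPB1 was singled out after its values were seen. Members and lists were chosen with earlier results of these data known. The scripts were tested on simulated data. Alternatives were DESeq2 1.42.0, RLE scaling, no filter, hormones left out of totals, thinning, stricter cell filters, other blocks and covariates, and each monkey left out.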

Additional observations from a re-analysis of the deposited data

Results flagged for a closer look

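In 42 groups of 4 to 10 monkeys, 4 held a value far from the others by Dixon's criterion, which chance flags in about 1 of 20 groups. YM3 accounted for 3 of them. Its δ-cells had 659.8 CPM of PCSK1 where the nearest of the other 6 young monkeys had 285.5, and 349.4 CPM of PAM where the nearest had 211.7. Its β-cells had 3433 CPM of CPE where the nearest of the other 7 young monkeys had 2315. YM3 also had the highest summed acinar markers in δ-cells (1309 CPM) and low α-cell PCSK1N in all 4 libraries. Its PCSK1N was 2790 CPM in β-cells and 5515 in δ-cells, where the medians over monkeys were 3952 and 5886. The remaining flagged value was CPE in the δ-cells of OF1, at 2361 CPM where the nearest of the other 3 old monkeys had 653.3.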

How the results depend on the processing

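No result changed direction with a call under any alternative. Of the counts of members called and the ratio tests, 195 values under other settings and 285 with 1 monkey left out were rated the same. For a ratio this meant the same side of the threshold, while a count could change by a few members. Single members did cross the threshold, CPE in β-cells against α-cells under 12 settings. Among the ratios, that of PCSK1 to PCSK2 in old against young β-cells (log2 difference 0.85) crossed it. It passed with a leading hormone at least 2 times the second (0.93, exact permutation test, adjusted p = 0.0324). It also passed without OF1 (1.04, adjusted p = 0.011), YM3 (0.95, adjusted p = 0.0417) or YM4 (1.02, adjusted p = 0.0179). With single monkeys left out it ranged from 0.66 to 1.04. Members called ranged from 5 to 6 in β-cells against α-cells, 3 to 5 in δ-cells and 2 to 4 in PP-cells against α-cells, and 3 to 4 in PP-cells against δ-cells. They stayed at 4 in δ-cells and in PP-cells against β-cells, and at 0 for age, sex and the interactions. Genes called by edgeR or DESeq2 over all settings ranged from 2692 to 5761 in β-cells, 2125 to 3026 in δ-cells and 576 to 1350 in PP-cells against α-cells, from 1581 to 3103 in PP-cells against β-cells, from 722 to 2269 in PP-cells against δ-cells, and for age from 0 to 23 in α-cells and 2 to 39 in β-cells. PCSK1N passed against α-cells in δ-cells under 5 settings and in PP-cells under 2, DESeq2 and RLE scaling in both. The cause was not tested. Same-numbered monkeys of the same sex did not deviate together (r from -0.05 to 0.16), so they share only a number. With that number as a replicate block, 0 members were called for age in α-, β- and δ-cells, beside 0, 6 and 1 genes. Without monkey as a block the cell-type comparisons called the same numbers of members. The replicate block in PP-cells (1 pair) and PP sums of at least 10 cells were not run, and the few δ- and PP-cells limit what those comparisons can show.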

Other observations

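CPB1, which encodes carboxypeptidase B1, an exopeptidase of basic residues known from the exocrine pancreas, was measured in δ-cells. It stood at 57.7 CPM at the lowest, 311 at the median and 1192 at the highest over the δ-cells of 11 monkeys, against medians of 1.79 in α-cells, 1.11 in β-cells and 4.42 in PP-cells. All 11 δ-cell sums exceeded 10 CPM, as did 3 of 16 α-cell sums, 2 of 16 β-cell sums and 2 of 6 PP-cell sums. The log2 difference of δ-cells was 6.31 ± 0.67 from α-cells (edgeR, adjusted p = 1.64e-10) and 7.61 ± 0.68 from β-cells (adjusted p = 5.95e-13), and that of PP-cells from δ-cells was -3.30 ± 0.87 (adjusted p = 0.00856). It was on the list of acinar markers, whose other 6 members in the files each had a mean under 16 CPM in δ-cells. The gene was singled out after its values were seen.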
